A study of Homo sapiens with 8 samples.

Results

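ABC transporter genes, ABCC11 among them, were taken as all rows of the deposited count table whose symbol is ABC, a letter from A to G and a number, which gave 46 of 26475 genes. They were compared between BT474 cells labelled NPY1R high (4 libraries) and NPY1R low (4 libraries). BT474 is an established human breast cancer line with amplified ERBB2, and NPY1R encodes the neuropeptide Y receptor Y1. All 8 libraries are of this line, made from 200 ng of RNA of cells plated below confluence. The labels name no drug for them, do not say how high and low cells were told apart, and do not say whether the replicates were separate cultures, so the p-values below measure the spread between these libraries, which may be technical. The title of the series places them in work on cells that persist under lapatinib, a kinase inhibitor aimed at ERBB2 and EGFR. The symbol rule leaves out 3 members of the family with other names, TAP1, TAP2 and CFTR, which are given apart.

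ABC transporters are membrane pumps that use ATP to move drugs, conjugates, lipids, haem, peptides and ions across membranes, and the human family is split by sequence into subfamilies A to G. Members of subfamilies B, C and G such as ABCB1, ABCC1 and ABCG2 are known for exporting anticancer drugs from tumour cells, subfamilies A and D mostly handle lipids, and the E and F proteins have the ATP-binding domains but no membrane part and work on ribosomes and translation. ABCC11 is best known from apocrine glands, whose secretion it loads with conjugated lipids and odour precursors, and it is also expressed in some breast tumours.

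Total expected counts ranged from 18025648 to 30609791 per library, so that the 3 counts that a count of 0 allows corresponded to 0.098 to 0.166 CPM (counts scaled to a library of 1000000), for counting error only. NPY1R itself, which defines the groups and checks the labels, ranged from 17256 to 28986 counts in the libraries labelled high and from 2028 to 2709 in those labelled low. All 9 luminal epithelial markers looked up, such as KRT8, KRT18 and EPCAM, were expressed, with GATA3 and ESR1 higher and EPCAM and FOXA1 lower in NPY1R high. Of 20 markers of fibroblasts, endothelium, leukocytes and basal cells, 4 had enough counts to test (COL1A1, VWF, CD68 and TP63) and 0 of these passed at 0.05 (adjusted) in edgeR, DESeq2 or limma-voom; in edgeR VWF and CD68, both lower in NPY1R high, had an unadjusted p under 0.05. The leukocyte list summed to 0.936 to 1.23 CPM in the NPY1R high libraries, against 1.1 to 2.1 CPM in the NPY1R low ones, the fibroblast list to 10.9 to 17.5 and 10.4 to 17.6 CPM, the endothelial list to 9.22 to 15.6 and 13.5 to 18.2 CPM, and the basal list to 4.91 to 8.81 and 4.52 to 7.78 CPM, while DCN, COL1A2, CD3E and KRT14 had 0 counts in all libraries. Over all genes tested, 13.6% passed in edgeR, so 0 of 4 markers passing says little. The part of fibroblasts, endothelium, leukocytes and basal cells in the results below was not tested. In RNA from a whole well, fewer cells expressing a gene and less RNA per cell cannot be told apart.

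ABCC11 and its neighbour ABCC12, the pumps ABCC3 and ABCC4 and the lipid transporter ABCA12 were lower in NPY1R high cells, while ABCG2, ABCA4 and, by less, ABCC2 were higher. Of the 46 ABC genes, 31 had enough counts to test, and 8 of these passed an adjusted p of 0.05, with 3 higher and 5 lower in NPY1R high. ABCC12 is 1 of the 5 and entered the test only through its NPY1R low libraries. With a minimum of 10 counts in every library, 29 ABC genes were tested and 8 passed, 4 higher and 4 lower, without ABCC12 and with ABCC5. Over all 14008 genes tested, 13.6% passed, 5.78% higher (810 genes) and 7.81% lower (1094 genes). That split moved with the scaling, to 1009 higher and 783 lower with upper-quartile factors, 949 and 807 with library totals and 984 and 882 with TMM set on NPY1R low replicate 1, while the 8 ABC genes kept their directions. The median log2 fold change was -0.02 over the ABC genes tested and -0.03 over all genes tested. A change of at least 2-fold was seen for 7 of the 31, all among these 8 and ABCC12 among them, against 3.2% of all genes tested. The groups did not overlap for 10 of the 31, ABCC12 among them, against 20.2% of all genes tested. The test throughout was edgeR's quasi-likelihood test on all 8 libraries, with Benjamini-Hochberg adjustment over all genes tested, and log2 fold changes are NPY1R high minus NPY1R low.

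**Figure D1:**
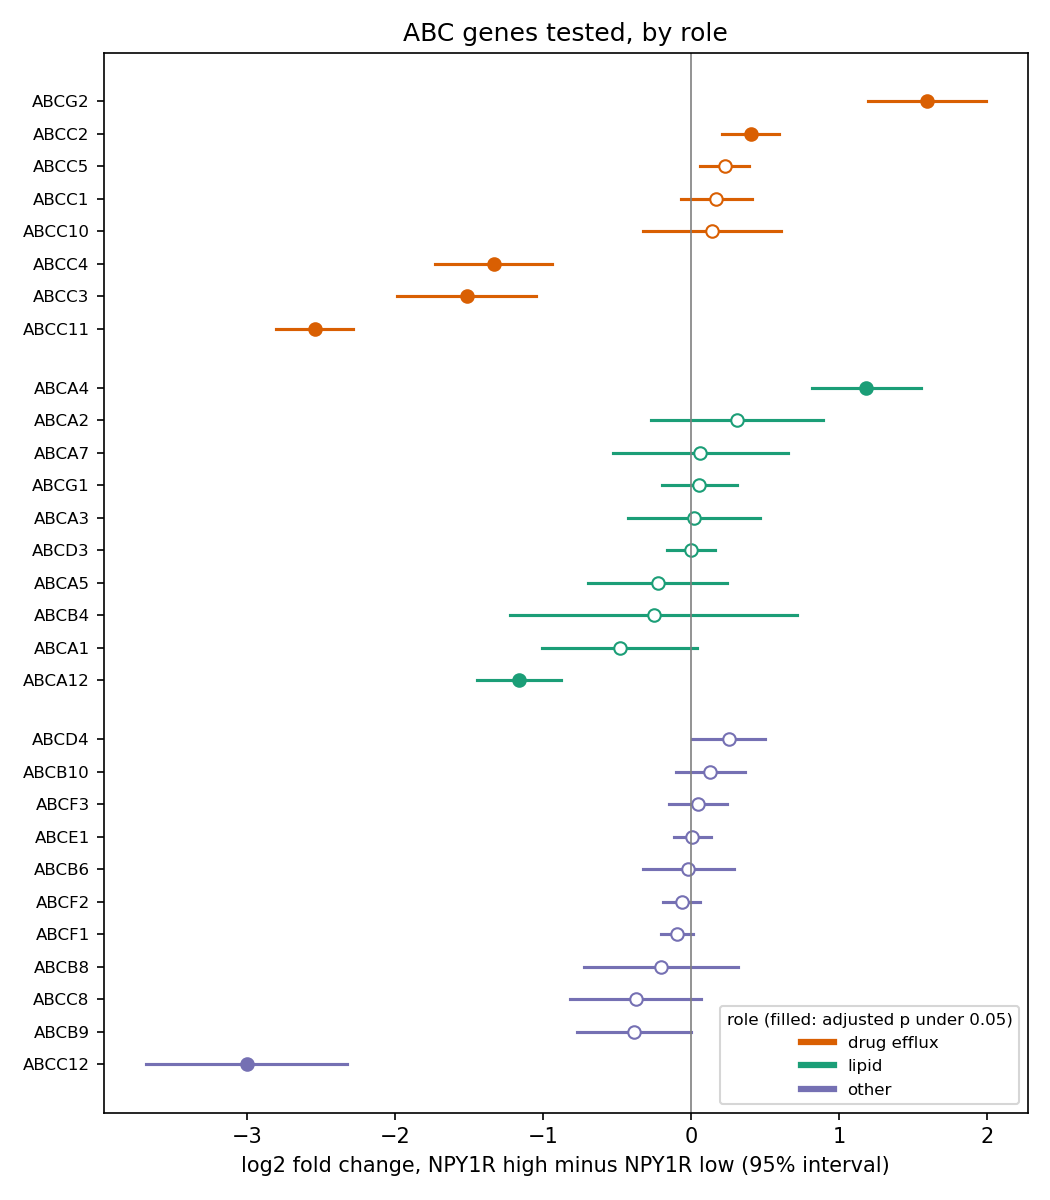
Log2 fold change (NPY1R high minus NPY1R low) of 29 of the 31 ABC genes tested, grouped by role, with 95% intervals from edgeR's quasi-likelihood fit. Filled points passed an adjusted p of 0.05, ABCC12 after entering the test only through its NPY1R low libraries. ABCC12 (-3.00) and ABCC11 (-2.55) lie farthest to the left and ABCG2 (1.59) farthest to the right, and all plotted genes that did not pass lie within 0.5 of 0.

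ABCC11 and ABCC12 lie side by side on chromosome 16 (GRCh38), in the same direction of transcription and 8.825 kb apart, ABCC12 at 48080882 to 48155993 and ABCC11 at 48164819 to 48247539. ABCG2 lies on chromosome 4 at 88090264 to 88231626. The sequence just before the outermost RefSeq start of each is shown, since ABCC11 and ABCC12 were both lower and ABCG2 rose. Each is a 200-base window that ends 50 bases before that start, on the minus strand of GRCh38.p14, written 5′ to 3′ from the promoter table of RefSeq, with any match to the motifs searched in capitals. The ABCC11 window is chr16:48247590-48247789, the ABCC12 window chr16:48156044-48156243 and the ABCG2 window chr4:88231677-88231876.
ABCC11: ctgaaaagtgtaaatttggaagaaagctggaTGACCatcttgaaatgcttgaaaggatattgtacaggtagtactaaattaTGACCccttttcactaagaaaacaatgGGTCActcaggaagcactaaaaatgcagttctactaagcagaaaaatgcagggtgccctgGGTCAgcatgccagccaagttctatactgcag
ABCC12: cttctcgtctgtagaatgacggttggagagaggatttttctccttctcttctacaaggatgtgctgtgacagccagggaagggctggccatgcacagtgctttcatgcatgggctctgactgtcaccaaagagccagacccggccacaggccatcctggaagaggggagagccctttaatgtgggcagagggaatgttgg
ABCG2: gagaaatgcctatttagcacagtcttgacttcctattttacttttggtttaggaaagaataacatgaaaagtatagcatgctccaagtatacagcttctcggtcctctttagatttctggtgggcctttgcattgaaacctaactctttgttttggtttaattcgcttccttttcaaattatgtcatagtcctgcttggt

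The motifs searched on both strands were the estrogen receptor element (GGTCA and TGACC with any 3 bases between them), its single arm GGTCA, the progesterone and androgen receptor arm TGTTCT, the FOXA1 core TGTTTAC, the GATA core AGATAA and the AP-1 site TGANTCA; a full estrogen receptor element also counts as matches to its arm. The ABCC11 window held 4 copies of GGTCA or its reverse TGACC, the ABCC12 and ABCG2 windows held 0, and no window of the 3 held another of these motifs. At least 1 copy of GGTCA was found in 27.1% of 35116 windows over all genes, and at least 4 copies in 46 windows (0.131%). The cutoff of 4 is the number found in the ABCC11 window itself, so its share is a description and not a test. The 35116 windows lie at the same distance before every start listed, inner starts included, so they are not a set of outermost windows only. The other motifs were found in 0.0228% (full element), 10.1% (TGTTCT), 2.35% (TGTTTAC), 7.62% (AGATAA) and 5.27% (TGANTCA) of windows. The 3 windows shown held few CpG dinucleotides, 0 before ABCC11, 3 before ABCC12 and 2 before ABCG2, against a median of 8 over the 35116 windows, inner starts included. A match describes letters only, and which start is used in these cells was not measured. RefSeq lists 3 starts each for ABCC11 and ABCC12 and 5 for ABCG2, and windows before the inner starts differ. The second ABCC11 window held 19 CpG dinucleotides and 1 copy of GGTCA or TGACC and the third 2 and 0. For ABCC12 these were 2 and 1 in the second window and 4 and 0 in the third. The inner ABCG2 windows held 3 to 28 CpG dinucleotides and at most 1 copy. The outermost ABCC11 window lies within LONP2, a gene on the other strand, outside its exons. LONP2 starts 88.306 kb to the right of ABCC12, so the second ABCC11 window (48244639 to 48244838) also lies within it, near its start. Overlap with exons was read for outermost windows only. Entries were found for 35 of the 46 ABC genes and for 6 of the 8 that passed the threshold; ABCA4 and ABCC3 were not among them.

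Of the 10 genes for drug efflux pumps, 8 were tested, 2 were higher and 3 lower in NPY1R high, and 3 did not pass. For comparison, 5.78% of all genes tested were higher and 7.81% lower. ABCC11 had 10.3, 8.66, 7.6 and 8.92 CPM in NPY1R high replicates 1 to 4 and 55.5, 43.4, 55.6 and 53.1 CPM in NPY1R low replicates 1 to 4. The groups lay far apart, with the highest NPY1R high library well under the lowest NPY1R low library. ABCC11 was 5.84-fold lower in NPY1R high, a log2 fold change of -2.55 (SE 0.12, adjusted p 1.36e-06, edgeR quasi-likelihood), from 51.9 ± 5.76 to 8.88 ± 1.13 CPM (SD, n = 4 each). An exact two-sided permutation test of its log2 CPM gave 0.0286, the smallest p that 4 against 4 libraries allow. That p follows from the lack of overlap, which 20.2% of all genes tested share, so it adds nothing to it.

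ABCC3, which exports glucuronide conjugates and bile salts across the basolateral membrane, had 76.6, 71, 44.1 and 50.4 CPM in the NPY1R high libraries, against 213.8, 200.5, 152.7 and 126.3 CPM in the NPY1R low ones. The groups did not overlap, although within each group replicates 3 and 4 lay below replicates 1 and 2. The difference was 2.86-fold, a log2 fold change of -1.52 (SE 0.21, adjusted p 0.00101, edgeR quasi-likelihood), and it was as large between replicates 1 and 2 alone (-1.49) as between replicates 3 and 4 alone (-1.56). ABCC4, which exports cyclic nucleotides, prostaglandins and nucleoside analogue drugs, had 6.25, 6.58, 4.09 and 3.85 CPM in the NPY1R high libraries, against 13.9, 13.6, 12.1 and 13.1 CPM in the NPY1R low ones. Its 4 NPY1R low libraries were close together and all above the NPY1R high ones, with a log2 fold change of -1.33 (SE 0.18, adjusted p 0.000797, edgeR quasi-likelihood). In mean log2 CPM, the ABCC4 difference was -1.09 between replicates 1 and 2 alone and -1.65 between replicates 3 and 4 alone. In the same order these were -2.37 and -2.71 for ABCC11 and 1.25 and 1.82 for ABCG2. They were 0.37 and 0.44 for ABCC2, -1.11 and -1.20 for ABCA12 and 1.01 and 1.38 for ABCA4.

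ABCG2, the breast cancer resistance protein, rose. It had 3.85, 5.17, 5.86 and 6.39 CPM in the NPY1R high libraries, against 1.81, 1.86, 1.74 and 1.61 CPM in the NPY1R low ones, so that the NPY1R low libraries were nearly equal and each NPY1R high library lay above them. The rise was 3.01-fold, a log2 fold change of 1.59 (SE 0.18, adjusted p 0.00029, edgeR quasi-likelihood). ABCC2, which exports glutathione and glucuronide conjugates at the apical membrane, had 109.2, 118.4, 101.7 and 98.2 CPM in the NPY1R high libraries, against 89.3, 87.2, 74.1 and 73 CPM in the NPY1R low ones, with no overlap but a gap of only a few CPM between the nearest libraries. It rose by a log2 of 0.40 (SE 0.09, adjusted p 0.0122, edgeR quasi-likelihood), a 1.32-fold difference.

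**Figure D2:**
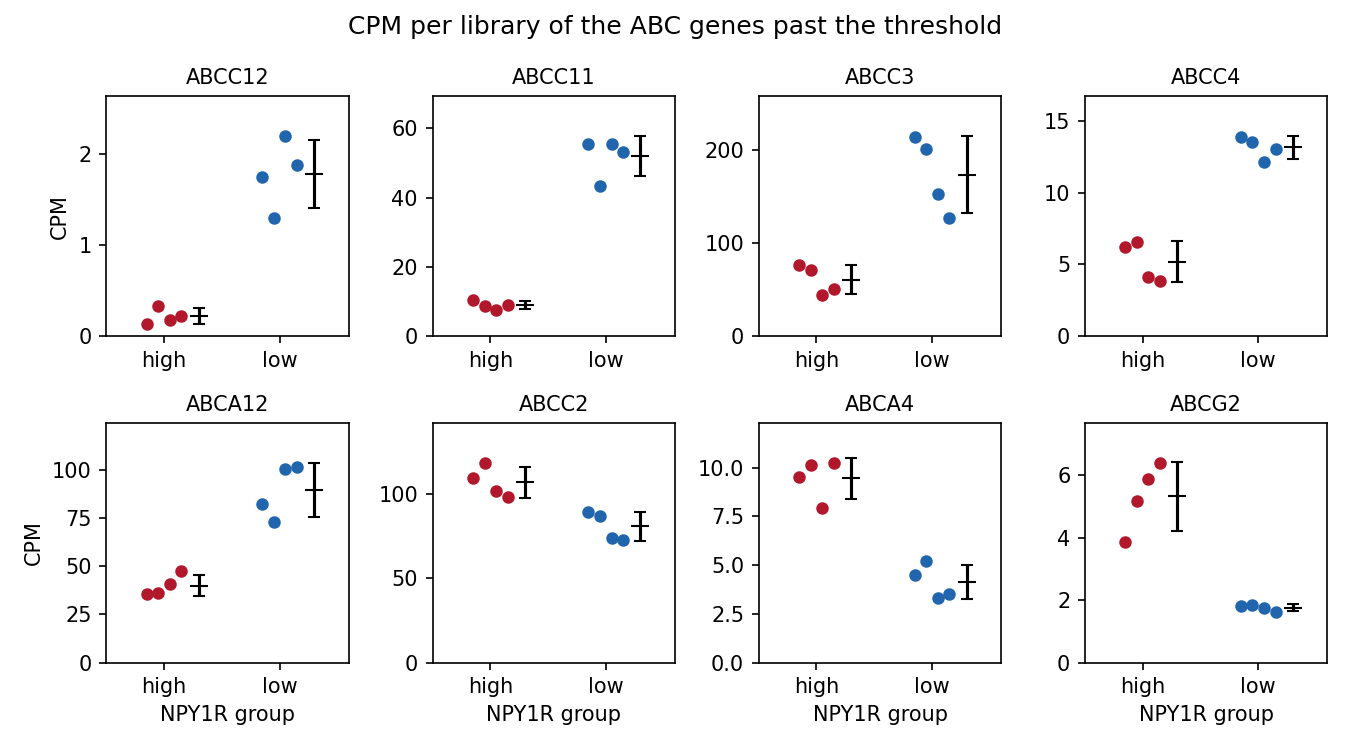
CPM in each library of the 8 ABC genes past an adjusted p of 0.05, with red points for NPY1R high, blue points for NPY1R low, and the mean and SD of 4 libraries in black; each panel has its own vertical axis from 0. In each panel the groups do not overlap, with ABCC11 at 7.6 to 10.3 CPM in the NPY1R high libraries, against 43.4 to 55.6 CPM in the NPY1R low ones. ABCC12 entered the test only through its NPY1R low libraries.

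The other efflux pumps differed less. ABCC5, an exporter of cyclic nucleotides and nucleotide analogues, had 126.9, 128, 108.7 and 109.3 CPM in the NPY1R high libraries, against 107.8, 105.1, 93.7 and 98 CPM in the NPY1R low ones. The groups did not overlap, by less than 1 CPM, and its log2 fold change of 0.22 (95% interval 0.06 to 0.39, adjusted p 0.0798, edgeR quasi-likelihood) did not pass. Of 22 alternative fits 13 put it under the threshold, and the adjusted p ranged from 0.00395 to 0.204. ABCC1, which exports glutathione conjugates and many anticancer drugs, had 50.3, 55.3, 37.8 and 49.6 CPM in the NPY1R high libraries, against 43.3, 44.6, 44.1 and 39.5 CPM in the NPY1R low ones. NPY1R high replicate 3 was the lowest of all 8 libraries and the groups overlapped, with a log2 fold change of 0.17 (95% interval -0.07 to 0.41, adjusted p 0.374, edgeR quasi-likelihood). Without that library it was 0.30 and passed (adjusted p 0.0269, edgeR quasi-likelihood). That was the only 1 of the 22 alternative fits to put ABCC1 under the threshold, and its adjusted p ranged up to 0.675. ABCC10 had a log2 fold change of 0.14 (95% interval -0.33 to 0.61).

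ABCB1, the P-glycoprotein of classical multidrug resistance, had very few counts: 4, 2, 2 and 3 counts in NPY1R high and 0, 0, 0 and 5 counts in NPY1R low, mostly within the 3 counts that a count of 0 allows, so no difference was detectable at this depth. ABCB5 had 0 counts in all 8 libraries.

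Set per kilobase of transcript, the order of the efflux genes differed between the groups. ABCC3 ranked at the top of the efflux genes in all 4 NPY1R low libraries and as number 3 in all 4 NPY1R high libraries, where ABCC5 was at the top. ABCC3 made up 30.1% to 38.6% of the summed efflux level per kilobase in NPY1R low and 13.7% to 19.0% in NPY1R high. For ABCC11 these shares were 9.77% to 14.9% and 2.47% to 3.03%, and for ABCG2 0.418% to 0.49% and 1.22% to 2.35%. The ratio of ABCC11 to ABCG2 per kilobase was 21.6 to 30.4 in NPY1R low and 1.19 to 2.48 in NPY1R high, so ABCC11 stayed the more abundant of the pair in each library. The summed level was 96.9, 91.5, 80.1 and 73.4 CPM per kilobase in NPY1R low replicates 1 to 4 and 70.7, 72.1, 56.4 and 60.6 in NPY1R high replicates 1 to 4. Each group's sum was lower in replicates 3 and 4 than in replicates 1 and 2.

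**Figure D3:**
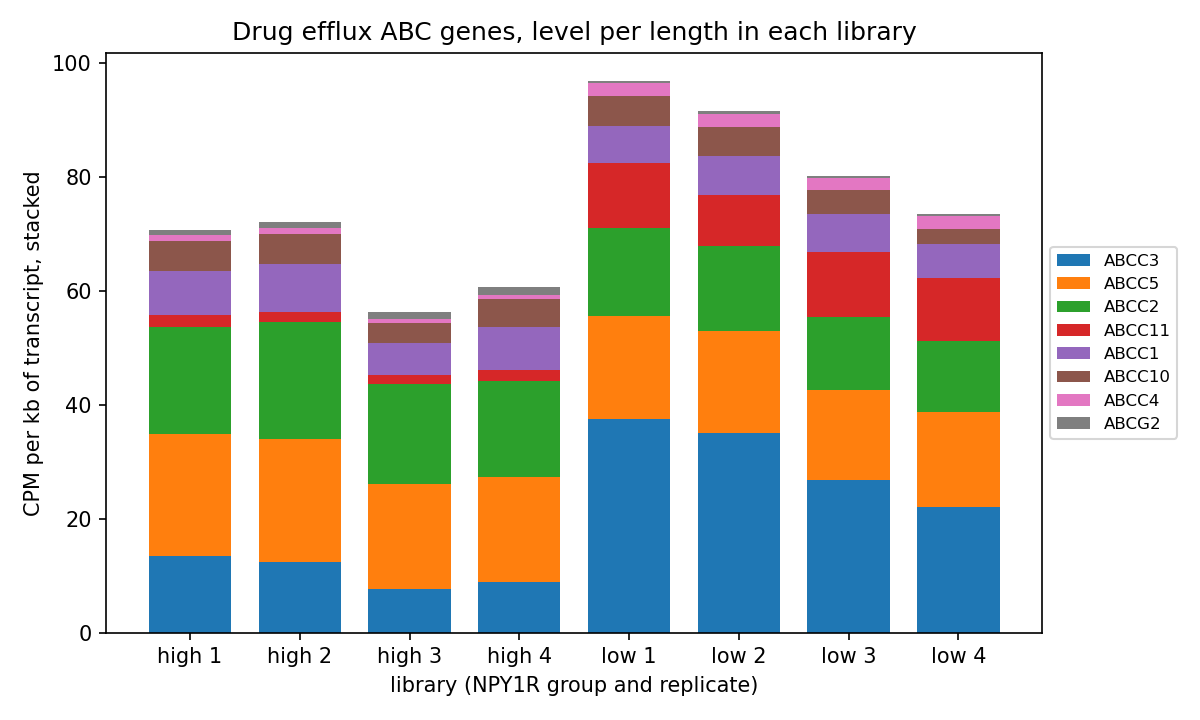
Level per length (CPM per kb of transcript) of the 8 tested efflux genes, stacked for each library. The ABCC3 and ABCC11 blocks are larger in the 4 NPY1R low libraries, and the stacks reach 73.4 to 96.9 there against 56.4 to 72.1 in NPY1R high.

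Of the 21 lipid transporters, 11 were tested, and 1 was higher and 1 lower, against 5.78% and 7.81% of all genes tested. ABCA12, which loads glucosylceramide into the lipid granules of keratinocytes, had 35.6, 36.2, 40.7 and 47.6 CPM in the NPY1R high libraries, against 82.6, 73, 100.8 and 101.7 CPM in the NPY1R low ones. All NPY1R low libraries were above all NPY1R high ones, and in both groups replicates 3 and 4 were the higher pair. It was 2.24-fold lower in NPY1R high, with a log2 fold change of -1.16 (SE 0.13, adjusted p 0.000264, edgeR quasi-likelihood). It lies on chromosome 2 at 214931542 to 215138626 and overlaps the non-coding gene SNHG31. ABCA4, the retinoid lipid flippase of photoreceptors, had 9.52, 10.1, 7.92 and 10.2 CPM in the NPY1R high libraries, against 4.5, 5.22, 3.29 and 3.54 CPM in the NPY1R low ones. The groups did not overlap, and ABCA4 rose 2.27-fold, a log2 fold change of 1.18 (SE 0.16, adjusted p 0.00105, edgeR quasi-likelihood).

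The cholesterol exporters showed no difference beyond their spread. ABCA1, which hands cholesterol to apolipoprotein A1, had 1.07, 0.744, 1.3 and 1.43 CPM in the NPY1R high libraries, against 1.61, 1.26, 1.88 and 1.57 CPM in the NPY1R low ones. The groups overlapped, and the log2 fold change was -0.48 (95% interval -1.01 to 0.04, adjusted p 0.231, edgeR quasi-likelihood). ABCG1, which moves cholesterol towards high-density lipoprotein, had 14.5, 14.1, 12.3 and 14.5 CPM in the NPY1R high libraries, against 15.4, 14.1, 11.9 and 11.8 CPM in the NPY1R low ones, with an interval of -0.20 to 0.31 around a log2 fold change of 0.05. The 9 lipid transporters that did not pass ranged from a log2 of -0.48 (ABCA1) to 0.31 (ABCA2). The peroxisomal ABCD3, which imports long-chain acyl-CoA and bile acid precursors, was at 77.7 ± 4.51 and 77.8 ± 6.64 CPM (SD, n = 4 each), with a 95% interval of the difference of -0.16 to 0.16. Of the 10 lipid transporters not tested, ABCA8, ABCA9 and ABCG8 had 0 counts in all libraries, and ABCA6, ABCA10, ABCA13, ABCB11, ABCD2, ABCG4 and ABCG5 had at most 5 counts in any library.

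Of the 15 other members, 12 were tested, 0 were higher and 1, ABCC12, was lower, against 5.78% and 7.81% of all genes tested. ABCC12, a neighbour and close relative of ABCC11 with no settled substrate, had 4, 9, 5 and 4 counts in NPY1R high and 52, 37, 48 and 48 counts in NPY1R low. It met the minimum count only through its NPY1R low libraries, so a gene entering in this way had to differ, and its fitted difference (8.02-fold lower in NPY1R high, log2 fold change -3.00) is given as a description and not as a test. ABCC11 had 25.9 to 75.2 times the counts of ABCC12 in NPY1R high and 25.3 to 33.5 times in NPY1R low. The protein-coding transcripts of the 2 genes shared 0 windows of 50 bases in GENCODE, out of 5067 in ABCC11 and 5293 in ABCC12, and the deposited counts of both were whole numbers in every library. Among the 46 ABC genes only ABCE1 had fractional counts, in 4 of 368 values in all.

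ABCE1, a soluble member that splits ribosomes for recycling, was the most abundant ABC gene per kilobase in all 8 libraries, at 67.2 CPM per kilobase in NPY1R high and 66.9 in NPY1R low, and its log2 fold change was 0.01 with a 95% interval of -0.12 to 0.13. ABCF2 and ABCF1, which act on ribosomes and translation start, followed by group mean at 35.3 and 33.6 CPM per kilobase in NPY1R high and 36.9 and 36 in NPY1R low, although ABCC3 (37.4) lay above ABCF1 (35.4) in NPY1R low replicate 1. The soluble ABCF3 was lower, at 19.9 and 19.3 CPM per kilobase, under ABCD3 by group mean in both groups. In NPY1R low replicate 2 ABCF3 (21.96) lay above ABCD3 (21.58). ABCF1 had no overlap between the groups but a log2 fold change of only -0.10 (adjusted p 0.238, edgeR quasi-likelihood). The mitochondrial transporters ABCB8 and ABCB10 had log2 fold changes of -0.21 and 0.13, with intervals that all included 0, as did that of ABCB6, a porphyrin transporter (-0.02). The lysosomal proteins ABCB9 (-0.39) and ABCD4 (0.25), a peptide and a cobalamin transporter, had unadjusted p of 0.048 and 0.0459 but did not pass (adjusted p 0.186 and 0.181, edgeR quasi-likelihood). ABCC8, the sulfonylurea receptor of potassium channels, was at 1.53 ± 0.161 and 1.99 ± 0.418 CPM (SD, n = 4 each) and did not pass. ABCC6, ABCC9 and ABCC13, the last a pseudogene in RefSeq, had at most 5 counts in any library.

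The genes around the 8 that passed were read from RefSeq as protein-coding genes within 500 kb. For comparison, 5.78% of all genes tested were higher and 7.81% lower. Around ABCC11, 5 neighbours were tested and 2 were lower, ABCC12 and LONP2, a peroxisomal protease whose gene overlaps the start of ABCC11 on the other strand. ABCC12 entered the test only through its NPY1R low libraries. LONP2 changed far less, by a log2 of -0.26 (SE 0.05, adjusted p 0.00388, edgeR quasi-likelihood), and PHKB (-0.07), SIAH1 (-0.29) and N4BP1 (0.02) did not pass. The kit was a stranded kind, but whether the counting used the strand is not given in the sources used here, so reads of ABCC11 and LONP2 may not be fully told apart where the genes overlap. Around ABCG2, 9 neighbours were tested, 4 were higher and 1 lower. PKD2, 12.486 kb to its left, had a log2 fold change of 0.36 (SE 0.10), PPM1K, 25.993 kb to its right, 1.15 (SE 0.14), and the interferon-induced genes HERC6 and HERC5 1.01 (SE 0.09) and 2.59 (SE 0.31). FAM13A, near the far edge, had -0.64 (SE 0.15), and PYURF, PIGY, HERC3 and NAP1L5 did not pass, PYURF and PIGY with the same counts. Around ABCC3, 3 of 20 tested neighbours were lower and 0 higher, and its nearest on the right, ANKRD40, had -0.01. TMEM92, among those 3, had 0.161 ± 0.042 CPM in NPY1R high and 0.529 ± 0.105 in NPY1R low (SD, n = 4 each). It met the minimum count only through its NPY1R low libraries, so its place among the lower ones is a description and not a test. Around ABCC2, which rose, 0 of 12 tested neighbours were higher and 4 were lower. Around ABCA12 1 of 3, around ABCA4 1 of 7 and around ABCC4 2 of 3 were lower and 0 were higher in edgeR; in DESeq2 and limma-voom, BARD1 beside ABCA12 and GPR180 beside ABCC4 did not pass.

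**Figure D4:**
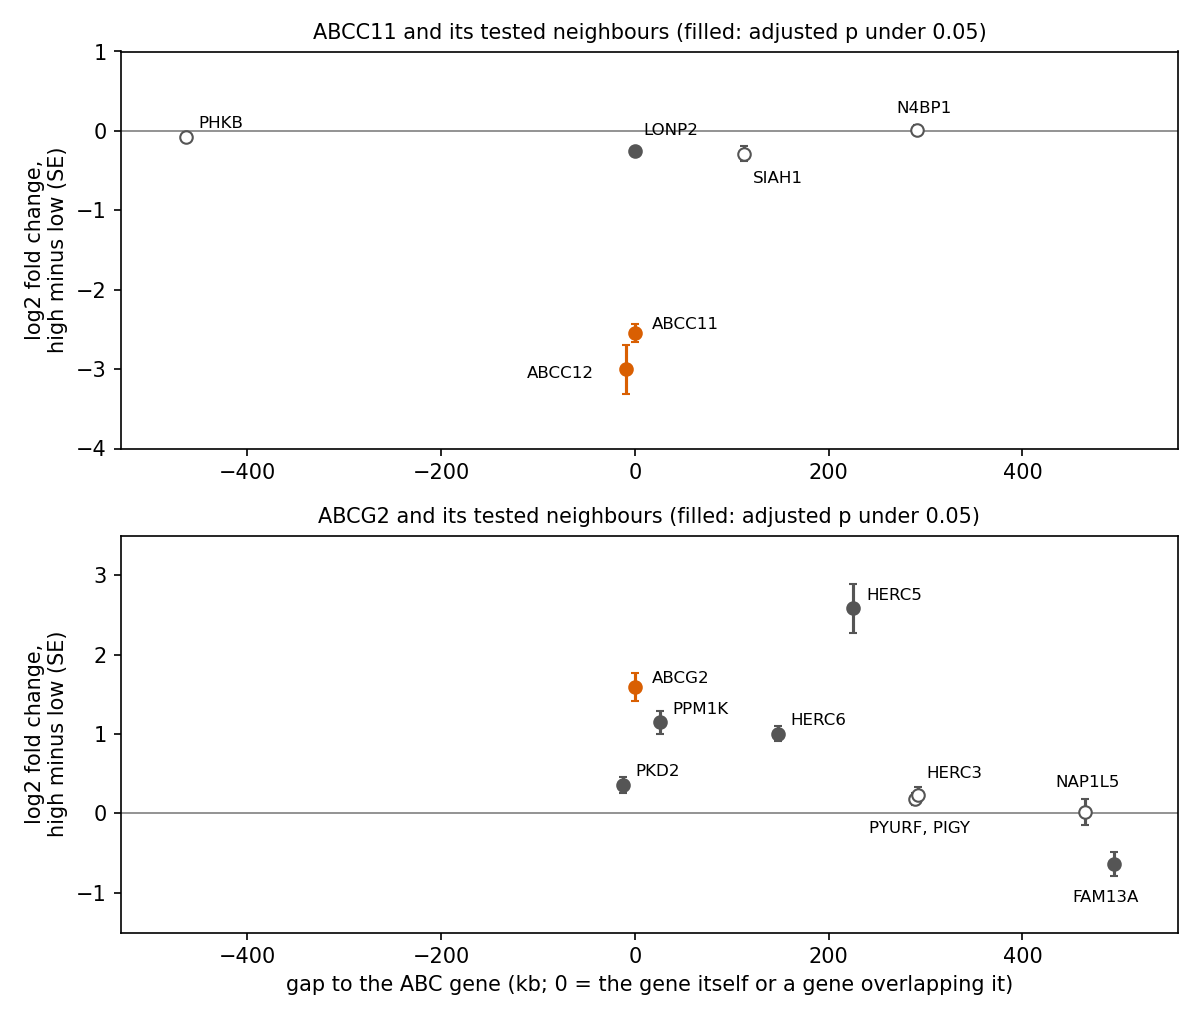
Log2 fold change with SE of ABCC11 (top) and ABCG2 (bottom) and their tested protein-coding neighbours within 500 kb, against the gap to the ABC gene in kb; orange marks ABC genes and filled points passed an adjusted p of 0.05. ABCC11 and ABCC12 lie near -2.55 and -3.00 while the other 4 genes of the top panel lie within 0.3 of 0, and PPM1K, HERC6 and HERC5 lie above 1 beside ABCG2. ABCC12 entered the test only through its NPY1R low libraries.

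The ABC family members under other names did not pass in edgeR's quasi-likelihood test, although TAP1 did in DESeq2. TAP1, part of the peptide transporter of antigen presentation, had 23.5 ± 1.04 CPM in the NPY1R high libraries, against 19.5 ± 1.67 CPM in the NPY1R low ones (SD, n = 4 each; log2 fold change 0.27, adjusted p 0.0639, edgeR quasi-likelihood), TAP2 had a log2 fold change of 0.03, and CFTR had too few counts to test. Among 12 partners of ABC proteins 9 were tested, with EIF2AK4 higher (0.18, SE 0.05) and PEX19, the import receptor of peroxisomal membrane proteins, lower (-0.19, SE 0.05) in edgeR but not in DESeq2. Over all genes tested, 13.6% passed in edgeR. ABCA1's acceptors had almost no counts here, 1 in all for APOA1 and 21 for APOE.

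Of 17 regulators of ABC genes, 15 were tested and 0 passed in edgeR's quasi-likelihood test, DESeq2 or limma-voom, with 3 at an unadjusted p under 0.05 in edgeR (NFE2L2, HIF1A and MTF1). They include the liver X receptors NR1H3 (-0.15) and NR1H2 (0.02), the aryl hydrocarbon receptor AHR (0.12), NFE2L2 (0.18, adjusted p 0.085) and HIF1A (-0.20). The pregnane X receptor NR1I2 had 9 counts in all and NR1I3 had 0. Of 7 targets of liver X receptors outside the ABC family, all tested, 0 were higher and 2 lower in edgeR, DESeq2 and limma-voom, and 5 did not pass. Over all genes tested, 13.6% passed in edgeR. The fatty acid desaturase SCD was lower (-0.69, SE 0.19, adjusted p 0.0368, edgeR quasi-likelihood), although its groups overlapped, with an exact two-sided permutation p of 0.0571. SMPDL3A lay the other way at 0.50 and did not pass (adjusted p 0.16, edgeR quasi-likelihood; unadjusted p 0.038).

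Of 24 genes for glutathione and conjugation, which supply the cargo of several ABCC pumps, 16 were tested, 3 were higher and 0 lower. For comparison, 5.78% of all genes tested were higher and 7.81% lower. The steroid sulfatase STS, which cleaves the steroid sulfates that ABCC pumps also carry, stood at 155.5 ± 14 CPM in NPY1R high against 93.6 ± 16.3 CPM in NPY1R low (SD, n = 4 each), a log2 fold change of 0.73 (SE 0.12, adjusted p 0.00244, edgeR quasi-likelihood). GSTM3 rose by a log2 of 0.45 (SE 0.07) and MGST3 by 0.25 (SE 0.06), both glutathione transferases, while GCLC and GCLM, which make glutathione, had 0.09 and -0.07 and did not pass. Of 19 uptake transporters, 9 were tested, 1 was higher and 2 lower, beside the same shares over all genes. The carnitine carrier SLC22A5 rose by a log2 of 0.73 (SE 0.06) to 36.1 ± 0.567 CPM from 21.7 ± 0.879 CPM (SD, n = 4 each), and the lipoprotein receptor SCARB1 fell by 0.60 (SE 0.12) on the log2 scale. The other one counted as lower, the fatty acid receptor CD36, had 5, 1, 2 and 0 counts in NPY1R high and 12, 12, 10 and 14 in NPY1R low, and it met the minimum count only through the NPY1R low libraries, so its counts are given as a description and not as a test.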

How the data were processed

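RNA-seq of 8 libraries was used as deposited. Per the submitters' processing notes, the tools were STAR 2.5.2 and RSEM 1.3.0 with build hg38; the annotation is not given in the sources used here. The authors deposited expected counts for gene symbols without scaling across libraries; the single-sample tables held the same values (0 differed). Expected counts were rounded to whole numbers, which the planned test required. Genes passing filterByExpr (minimum count 10) numbered 14008, libraries were scaled by TMM, and edgeR 4.0.16 (R 4.3.3) tested NPY1R high against low without covariates; standard errors are the log2 fold change over the root of the F statistic. CPM use TMM library sizes; log2 CPM add a prior count of 2. Lengths and GC content are those of the longest protein-coding GENCODE 29 transcript, since the authors' lengths were not used here. Coordinates are from RefSeq GRCh38.p14, in which all 46 ABC genes matched. DESeq2 1.42.0, limma 3.58.1, other scalings and filters, a replicate block, a term for replicates 1 and 2 against 3 and 4, a GC offset and leaving out each library were alternatives. A few genes are not reported here by name, though counts over lists include them. The procedure was tested on simulated counts. The genes, lists and roles were chosen with earlier results of these data known. Given in every library are the ABC genes past the threshold and ABCC11, ABCB1, ABCG2, ABCC1, ABCA1 and ABCG1; ABCC5, the motifs and the neighbours were chosen after seeing the data. In other lists at most 6 genes past the threshold are named, and further names there were chosen after seeing values. No 2 libraries of a group were the same, with chi-square per degree of freedom of 5.99 to 66.2 over 12 pairs.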

Additional observations from a re-analysis of the deposited data

Results flagged for a closer look

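In each group of 4 libraries, the log2 CPM of 29 ABC genes tested and of NPY1R were searched for a library far from the other 3, by Dixon's test at the 95% level. Of 60 group values 6 stood out, where chance gives about 3 (1 in 20), and all 6 were in NPY1R high replicate 3 or NPY1R low replicate 4. None of the 8 ABC genes past the threshold was among them. The number in brackets is the gap to the nearest library as a share of the group's range. In NPY1R high replicate 3, ABCC10 had 17.6 CPM where the other 3 had 25.3 to 27 (0.848), ABCC8 had 1.77 against 1.43 to 1.48 (0.854), ABCD4 had 18.3 against 21.2 to 21.9 (0.832) and ABCG1 had 12.3 against 14.1 to 14.5 (0.833). In NPY1R low replicate 4, ABCC8 had 1.37 CPM where the other 3 had 2.1 to 2.28 (0.839) and ABCE1 had 280.2 against 256.1 to 257 (0.961).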

How the results depend on the processing

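Each of the 8 ABC genes past the threshold kept its direction and stayed past 0.05 in every alternative in which it was tested. For ABCC12 this is a description and not a test, since it entered only through its NPY1R low libraries. It had too few counts under the filter of 10 counts in every library. Only ABCC2 was lost at an adjusted p of 0.01 (0.0122). The number of ABC genes past the threshold ranged from 7 to 10, of which leaving out single libraries gave 8 to 10. ABCC11 ranged from -2.63 to -2.45 and NPY1R from 3.08 to 3.25. Added calls were ABCC5, ABCD4 (with the GC offset and replicate block, adjusted p 0.0469) and ABCC1. Over all genes 1904 passed; the count was 2886 with the term for replicates 1 and 2 against 3 and 4, 2961 with the GC offset, 3323 with the GC offset and replicate block and 1032 at an adjusted p of 0.01, and 1351 to 2132 without 1 library. The cause was not tested. Of the 31 ABC genes tested, ABCB6 and ABCD3 changed sign between scalings. Whether same-numbered libraries are pairs is not given by the labels and was not settled here. Their deviations from the group means had positive correlations of 0.339, 0.157, 0.0907 and 0.0178, which were not compared with those of differently numbered libraries. With the replicate block 9 ABC genes passed, ABCC5 added. ABCB1 and the other 14 ABC genes not tested had totals over 8 libraries of at most 16 counts. For them, lack of expression and too little sequencing depth were not told apart.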
